A study of Mus musculus with 6 samples.

Results

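Genes linked to the transcription factor ATF4, which answers to amino acid shortage and other stresses, were examined in mouse monocytic myeloid-derived suppressor cells (M-MDSCs). Cells labelled as mTOR knockout were compared with wild-type cells. Whether each gene depends on ATF4 in these cells was not tested. The set held 42 genes chosen by name: ATF4 and its stress targets (7 genes), enzymes of serine, proline, asparagine and one-carbon metabolism (11 genes), amino acid transporters (6 genes) and cytosolic tRNA synthetases (18 genes). All 42 were found among the 34745 genes of the count table, and all 42 passed the filter on low counts that left 12537 genes for testing. RNA was sequenced from 3 libraries of wild-type (WT) C57BL/6 cells and from 3 libraries of mTOR-/- cells, which came from mTOR flox/flox mice carrying Lyz-Cre. In those mice the recombinase is driven by the lysozyme gene, so that deletion is restricted to myeloid cells and can differ between the cells of a sample. By the paper, the WT mice were bought and the knockout line was bred from donated strains. Differences due to the Cre allele, the floxed alleles or the colony thus cannot be told apart from those due to mTOR loss. Both groups were induced from bone marrow, a culture made in the study with GM-CSF and IL-6 and then sorted. The ages of the mice are not given in the sources used here. The replicates are labelled 1 to 3 in each group, and nothing in the labels says that each came from a mouse of its own, so p-values measure only the spread between these samples. Over all genes, mTOR-/- replicate 3 stood somewhat apart: its correlations of log2 CPM (counts scaled to a common library total with TMM factors) with the other mTOR-/- libraries were 0.955 and 0.952, against 0.973 between those 2. Mtor itself did not separate the groups (log2 fold change 0.15, edgeR adjusted p = 0.442). The paper reports that it verified the loss of mTOR in MDSCs, in a supplementary figure not examined here. The deleted exons are not given in the sources used here, and a count over the whole gene can miss their loss.

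ATF4 is made at low levels in resting cells because upstream reading frames in its mRNA hold back its translation. When a stress kinase phosphorylates eIF2, or when mTORC1 is active, more ATF4 protein is made, and it switches on genes for amino acid synthesis, amino acid uptake, one-carbon metabolism and tRNA charging, together with the stress factors Ddit3, Trib3 and Chac1. In many cell types mTORC1 is known to raise the transcripts of this programme, and the aminoacyl-tRNA synthetases, which join each amino acid to its tRNA, are among its targets.

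The 42 genes were close to their WT level in mTOR-/- M-MDSCs. Their median log2 fold change, mTOR-/- over WT, was 0.01, against a median of 0.00 over all tested genes, of which the middle 50% lay between -0.20 and 0.25. The log2 fold change was above 0 for 21 of the 42 genes and below 0 for 21. By edgeR's quasi-likelihood test with Benjamini-Hochberg adjustment over all tested genes, 0 of 42 had an adjusted p under 0.05. Of all tested genes, 2.18% were called higher and 1.87% lower by this rule, which would correspond to about 1 gene in each direction for a set of this size. With a fold change of at least 2 added, the shares over all genes were 1.04% higher and 0.654% lower, and again 0 of the 42 genes were called. At an unadjusted p under 0.05 there were 9 of the 42: 3 higher, Lars, Shmt1 and Slc1a5 (7.14% of the set, against 11.7% of all tested genes), and 6 lower, Slc7a5, Ddit3, Atf4, Pycr1, Phgdh and Slc3a2 (14.3% of the set, against 9.52%). DESeq2 on the same genes called 2 of the 42, Lars and Shmt1, both higher, edgeR's exact test called Lars alone, and limma-voom called 0. The shares above do not apply to these tests. Of all 12537 tested genes, DESeq2 called 1144 (635 higher), the exact test 1009 (590 higher) and limma-voom 509.

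The libraries of the groups did not overlap for 9 of the 42 genes. In 5 of them, Lars, Slc38a2, Mars, Rars and Cars, every mTOR-/- library lay above every WT library, which was also true of 14.5% of all tested genes. In the other 4, Slc7a5, Ddit3, Atf4 and Slc3a2, every mTOR-/- library lay below every WT library, as for 13.9% of all tested genes. Both counts, 11.9% and 9.52% of the set, were under those shares.

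A p that misses the threshold leaves room for a change, so the 95% intervals of the log2 fold changes were examined. They lay within a 2-fold change either way for 40 of the 42 genes and within a 1.5-fold change either way for 34. The exceptions at 2-fold were Shmt1, with an interval of 0.20 to 1.43, and Pycr1, with an interval of -1.17 to -0.04. The median half-width was 0.24, and 9 intervals left out 0, with no allowance for the number of genes. These are the same 9 genes as at an unadjusted p under 0.05, since both come from 1 fit. Of all 12537 tested genes, 2657 had such a p by edgeR. Intervals were computed for the 42 genes and the genes of the other lists only, so shares over all genes within those limits are not given.

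**Figure D1:**
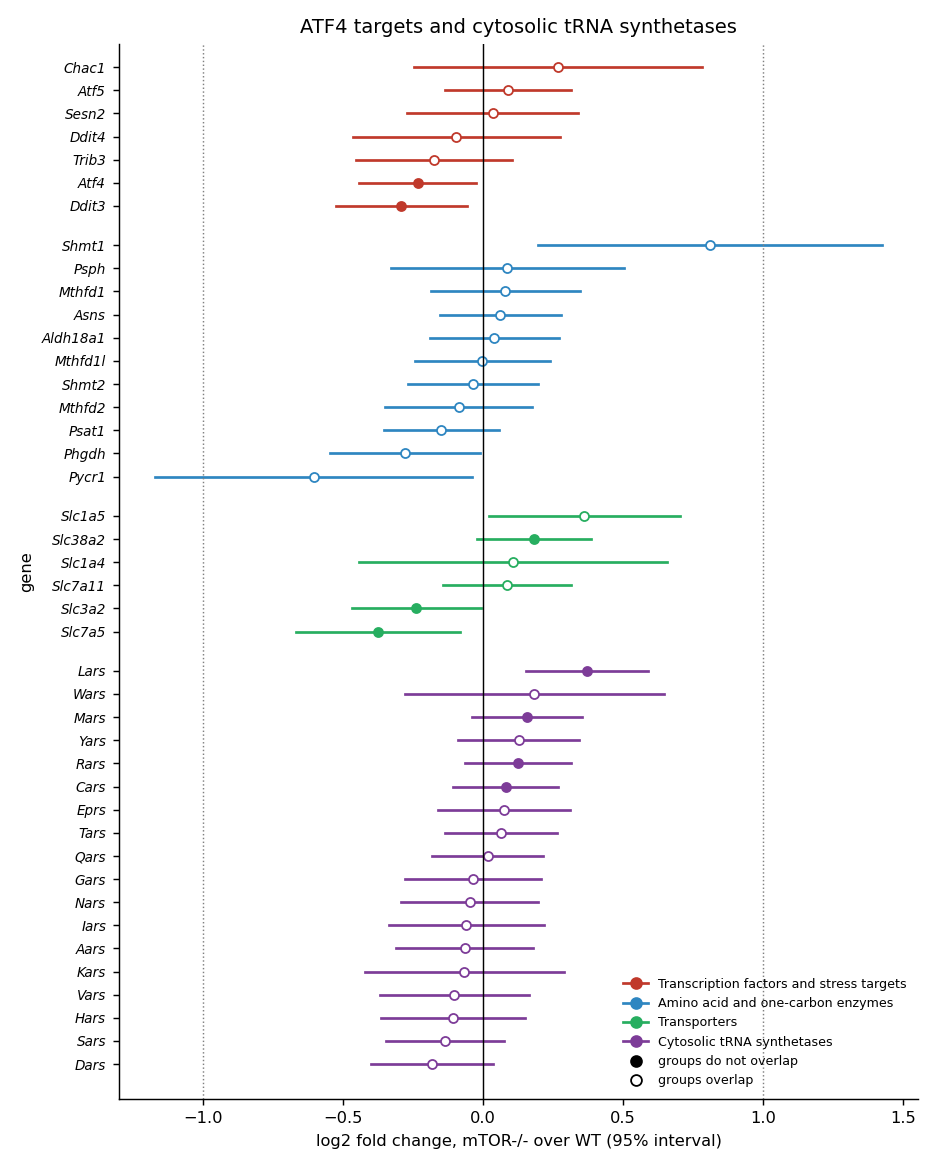
Log2 fold change of each of the 42 genes, mTOR-/- over WT (x axis), with its 95% interval from edgeR, grouped by role (colour) and ordered by size within each role. Filled points mark the 9 genes whose libraries do not overlap between the groups and dotted lines mark 2-fold changes; the intervals of Shmt1 and Pycr1 alone pass those lines.

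The sequences before the start of several of these genes hold the composite element that ATF4 binds with a C/EBP partner, whose core was searched as TGATGNAA on either strand (TTNCATCA when read in reverse). Promoter windows of 300 bases, 250 before and 50 after the start, were available from RefSeq (GRCm38.p6) for 33 of the 42 genes. The core was found in 11 of the 33 genes (33.3%) and in 4.51% of the 27025 genes with a window. The 9 genes without a window in the table were Slc7a5, Slc1a5, Cars, Hars, Lars, Nars, Rars, Vars and Wars. A match describes these letters only and was not tested for binding. The set was chosen by name for its link to ATF4, so the difference in share is no test of that link. The 6 genes below are among those with a match before the RefSeq start. They are shown as examples of the core, which was not found in 22 of the 33 genes with a window. Each is printed 5′ to 3′ on the strand of its gene with the core in capitals.
Chac1 (plus strand, chr2:119351023-119351082): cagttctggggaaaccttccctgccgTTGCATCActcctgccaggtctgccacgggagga
Asns (minus strand, chr6:7693215-7693242): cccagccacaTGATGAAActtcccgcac
Pycr1 (minus strand, chr11:120643818-120643877): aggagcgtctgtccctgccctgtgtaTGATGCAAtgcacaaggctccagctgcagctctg
Slc7a11 (minus strand, chr3:50443637-50443696): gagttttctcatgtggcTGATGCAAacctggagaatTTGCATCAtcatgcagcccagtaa
Gars (plus strand, chr6:55037941-55038000): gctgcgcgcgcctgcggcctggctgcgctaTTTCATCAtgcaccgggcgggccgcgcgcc
Tars (minus strand, chr15:11399659-11399686): gccaggagtcccgTTGCATCAgctggtt
Slc7a11, the light chain of the cystine importer, was the gene among them with 2 cores, 1 on each strand. In Trib3, Slc1a4, Iars and Yars the match was at or after the RefSeq start. The gene as counted can start elsewhere, and the Trib3 match lies before the start of its counted span. By role, the core was in 2 of 7 stress genes, 2 of 11 enzymes, 2 of 4 transporters with a window and 5 of 11 synthetases with a window.

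The 11 genes with the core showed no common direction. Their log2 fold changes ran from -0.61 for Pycr1 to 0.27 for Chac1, with a median of 0.06 and 6 of the 11 above 0. The libraries of the groups separated in 0 of the 11, in 5 of the 22 genes whose window held no match (22.7%) and in 4 of the 9 without a window (44.4%), against 28.4% of all tested genes in either direction. The median log2 fold change of the 22 was -0.02. These genes are too few, and were split after their values were known, so the difference was not tested.

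Atf4 itself was the gene with the most RNA per kilobase of exon in this set, at 527 ± 14.3 CPM per kilobase in WT (SD, n = 3) and 448 ± 24.2 in mTOR-/- (n = 3). By library, Atf4 stood at 1114, 1055 and 1000.05 CPM in mTOR-/- replicates 1 to 3 and at 1230.0, 1216 and 1279.9 CPM in the WT replicates. The groups did not overlap, and the mean of the mTOR-/- libraries was 85.1% of the WT mean. The log2 fold change was -0.23 ± 0.09 (SE), with an edgeR adjusted p of 0.193. These are transcript levels, and ATF4 protein, which is set largely by translation, was not measured here.

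Ddit3 encodes CHOP, the factor that ATF4 induces under prolonged stress. Its levels were 201, 198 and 165 CPM in the mTOR-/- libraries and 216, 244 and 231 CPM in the WT libraries. Every mTOR-/- library was below the lowest WT library, replicate 3 the furthest, and the log2 fold change was -0.29 ± 0.10 (edgeR adjusted p = 0.153). The span of Ddit3 overlaps that of Mars on the opposite strand by 68 bases. The strand setting of the counting is not given in the sources used here. Trib3, a pseudokinase that restrains ATF4, was at 353, 384 and 273 CPM in mTOR-/- and between 378 and 383 CPM in WT. Its spread was thus almost all within the mTOR-/- group, where replicate 3 was the lowest.

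Chac1, which degrades glutathione and is among the targets most sensitive to ATF4 activity in other cells, was scarce. It was at 13.8, 8.65 and 12.6 CPM in the mTOR-/- libraries and at 9.60, 8.61 and 10.9 CPM in the WT libraries. Replicates 1 and 3 of mTOR-/- were above all WT libraries and replicate 2 was level with the lowest, and the log2 fold change was 0.27 ± 0.23 (edgeR adjusted p = 0.536), with a 95% interval of -0.25 to 0.78. The remaining stress genes, Atf5, Sesn2 and Ddit4, had log2 fold changes of 0.09, 0.03 and -0.10. Sesn2 and Ddit4 encode inhibitors of mTORC1 signalling and Atf5 is a related transcription factor. Over the 7 genes of this role the median log2 fold change was -0.10, with 3 above 0 and 4 below. Their summed level did not overlap between the groups, at 2033 to 2367 CPM in mTOR-/- and 2424 to 2522 CPM in WT. Atf4 was the largest part of that sum, and only Atf4 and Ddit3 of the 7 separated on their own. The sums of the other roles overlapped between the groups. For the enzymes they were 1172 to 1303 CPM in mTOR-/- and 1159 to 1328 CPM in WT. For the transporters they were 2447 to 2538 CPM in mTOR-/- and 2458 to 2568 CPM in WT.

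Asns, asparagine synthetase, is the classical amino acid response gene and carries the core shown above 23 to 16 bases before its RefSeq start. The gene as counted reaches chr6:7693254, so the core lies within that longer span. Asns was at 128, 150.1 and 142 CPM in the mTOR-/- libraries and at 140.1, 128 and 135 CPM in the WT libraries. Almost the whole WT range lay inside the mTOR-/- range, with a log2 fold change of 0.06 ± 0.10 (edgeR adjusted p = 0.760) and an interval of -0.16 to 0.28.

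The serine pathway starts from a glycolytic intermediate with Phgdh, continues with Psat1 and Psph, and passes its carbon to the folate cycle through Shmt1 in the cytosol and Shmt2 in mitochondria. Phgdh was at 76.3, 90.8 and 74.4 CPM in mTOR-/- and at 105, 87.4 and 100.2 CPM in WT. The groups overlapped through mTOR-/- replicate 2 and WT replicate 2, and the log2 fold change was -0.28 ± 0.12 (edgeR adjusted p = 0.220). Psat1 had a log2 fold change of -0.15 and Psph of 0.09, neither called.

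The mitochondrial and cytosolic serine hydroxymethyltransferases differed in how far their libraries scattered. Shmt1 had the largest log2 fold change of the 42 genes, 0.81 ± 0.27 (edgeR adjusted p = 0.135). Its levels were 32.7, 43.5 and 67.3 CPM in the mTOR-/- libraries and 34.4, 20.2 and 27.3 CPM in the WT libraries. Replicate 3 of mTOR-/- was the highest, while replicate 1 lay within the WT range, and without replicate 3 the log2 fold change was 0.48 (edgeR adjusted p = 0.308). With each library left out in turn it ran from 0.48 to 1.02, with a lowest edgeR adjusted p of 0.0907. The span of Shmt1 overlaps by 184 bases that of Smcr8 on the opposite strand, whose total count was several times higher. Shmt2, the mitochondrial enzyme, had a log2 fold change of -0.04, with a 95% interval of -0.27 to 0.20. The folate enzymes Mthfd1, Mthfd2 and Mthfd1l, which carry one-carbon units in the cytosol and in mitochondria, had log2 fold changes of 0.08, -0.09 and 0.00.

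Proline synthesis from glutamate is carried out by Aldh18a1 and then Pycr1. Pycr1 was at 6.68, 9.96 and 8.64 CPM in mTOR-/- and at 16.3, 9.70 and 12.5 CPM in WT. It was the least abundant transcript of the set per kilobase, at 2.14 ± 0.419 CPM per kilobase in mTOR-/- and 3.26 ± 0.849 in WT (SD, n = 3 each). Its log2 fold change, -0.61 ± 0.25 (edgeR adjusted p = 0.211), was the lowest of the set, and the groups overlapped because mTOR-/- replicate 2 was above WT replicate 2. Aldh18a1, which acts in the same pathway, had a log2 fold change of 0.04. The median over the 11 enzymes was 0.00.

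**Figure D2:**
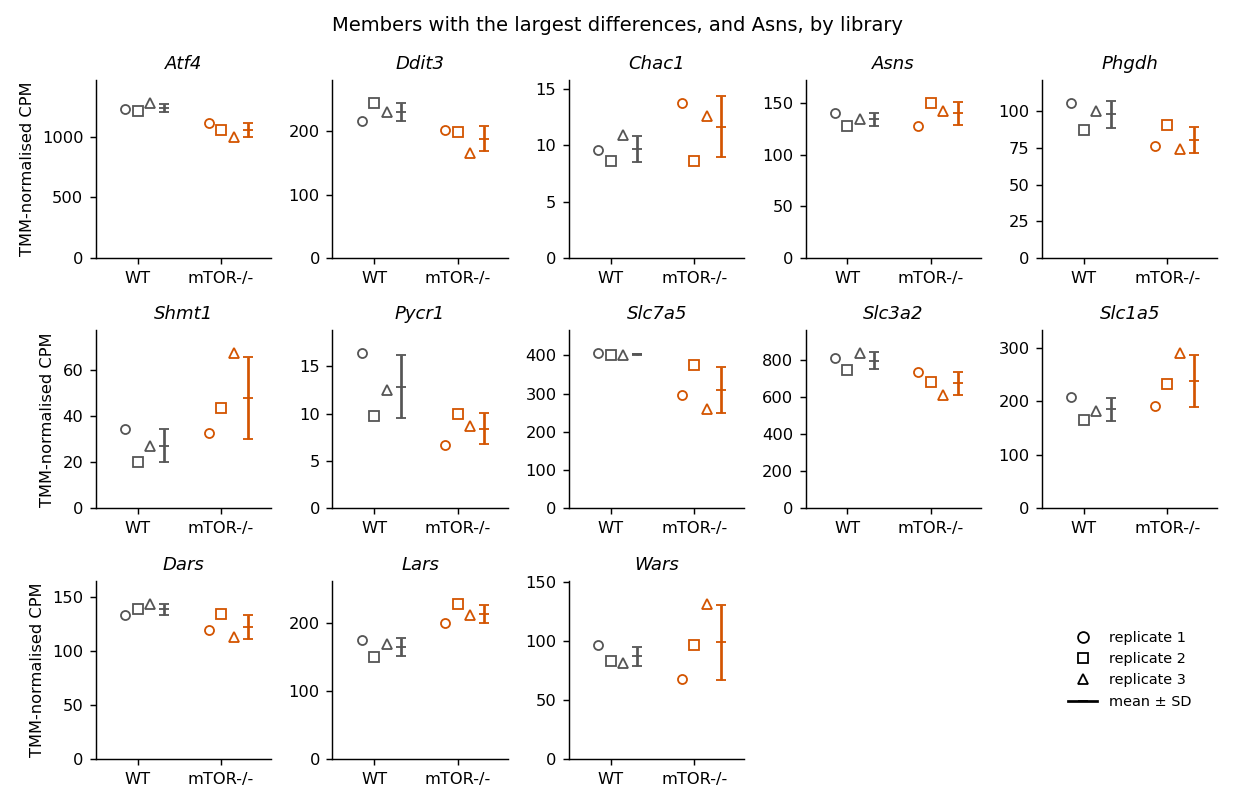
TMM-normalised CPM (y axes, each from 0) in the 3 WT and 3 mTOR-/- libraries for the 12 genes with the largest log2 fold changes, Atf4 and Chac1 among them, and for Asns; marker shapes give the replicate number and bars the mean ± SD. The groups separate for Atf4, Ddit3, Slc7a5, Slc3a2 and Lars and overlap for the other 8 genes.

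Slc7a5 and Slc3a2 form LAT1, the heterodimer that brings leucine and other large neutral amino acids into the cell. Slc7a5, the transporting chain, was at 295, 375 and 259 CPM in the mTOR-/- libraries and at 405, 402 and 400.1 CPM in the WT libraries. All mTOR-/- libraries were below all WT libraries, which differed little from one another, and the mTOR-/- mean was 77.1% of the WT mean. The log2 fold change was -0.38 ± 0.13 (edgeR adjusted p = 0.144). Without mTOR-/- replicate 2, the closest to WT, it was -0.55 with an edgeR adjusted p of 0.0276. Without replicate 3, the furthest from WT, it was -0.27 with an edgeR adjusted p of 0.228.

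Slc3a2, the shared heavy chain, was at 733, 680.3 and 609 CPM in mTOR-/- and at 808, 743 and 833 CPM in WT. The groups were apart by a narrow margin, with a log2 fold change of -0.24 ± 0.10 (edgeR adjusted p = 0.223). The other partner of Slc3a2 in this set, Slc7a11, had a log2 fold change of 0.09.

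The sodium-coupled neutral amino acid transporters had log2 fold changes above 0. Slc1a5, which imports glutamine, was at 192, 232 and 289 CPM in mTOR-/- and at 208, 165 and 182 CPM in WT. Its groups overlapped, because mTOR-/- replicate 1 was below WT replicate 1. The log2 fold change was 0.36 ± 0.15 (edgeR adjusted p = 0.212), and 0.19 without mTOR-/- replicate 3. With each library left out in turn it ran from 0.19 to 0.49, with a lowest edgeR adjusted p of 0.114. Slc38a2, the SNAT2 transporter of small neutral amino acids, was at 688, 647 and 735 CPM in mTOR-/- and at 630.1, 595 and 600.1 CPM in WT. The groups did not overlap, with a log2 fold change of 0.18 ± 0.09 (edgeR adjusted p = 0.287). Slc1a4, which exchanges alanine, serine and cysteine, had a log2 fold change of 0.11 with a wide interval, -0.44 to 0.66. The median over the 6 transporters was 0.10.

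The 18 cytosolic tRNA synthetases stayed within narrow limits. Their log2 fold changes lay between -0.18 for Dars and 0.37 for Lars, with 9 above 0, 9 below 0 and a median of -0.01. Per kilobase of exon the most abundant synthetase was Nars, at 109 ± 3.27 CPM per kilobase in WT, and the least abundant was Yars, at 16.8 ± 1.09. Summed over all 18, the level ran from 3434 to 4042 CPM in mTOR-/- and from 3626 to 3740 CPM in WT, so the WT range lay inside that of mTOR-/-.

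Lars, which charges tRNA with leucine and is also known as a leucine sensor upstream of mTORC1, had the lowest adjusted p of the 42 genes. It was at 199.8, 227 and 210.4 CPM in the mTOR-/- libraries and at 174, 149.8 and 169 CPM in the WT libraries. All mTOR-/- libraries exceeded all WT libraries, and the mTOR-/- mean was 129% of the WT mean. The log2 fold change was 0.37 ± 0.10 (edgeR adjusted p = 0.0677), with a 95% interval of 0.15 to 0.59. By DESeq2 its adjusted p was 0.0208 and by edgeR's exact test it was 0.0417.

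Wars, the tryptophan enzyme, which interferon induces in many cells, was at 67.8, 96.7 and 131 CPM in mTOR-/- and at 96.2, 82.7 and 81.5 CPM in WT. The mTOR-/- libraries lay on both sides of the WT range, with a log2 fold change of 0.18 ± 0.21 (edgeR adjusted p = 0.648). Dars, the aspartate enzyme, was at 120.2, 135 and 113 CPM in mTOR-/- and at 134, 139.6 and 144 CPM in WT. Its groups overlapped through mTOR-/- replicate 2 alone, and the log2 fold change was -0.18 ± 0.10 (edgeR adjusted p = 0.320). The methionine, arginine and cysteine enzymes Mars, Rars and Cars had libraries that did not overlap, with log2 fold changes of 0.16, 0.12 and 0.08 in turn, none of them called.

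The 3 mTOR-/- libraries lay further apart in these genes than the 3 WT libraries did, and the same held over all genes. There log2 CPM correlated at 0.952 to 0.973 between mTOR-/- libraries and at 0.978 to 0.981 between WT libraries. Replicates 1 and 2 of mTOR-/- correlated with the WT libraries at 0.957 to 0.966, and with mTOR-/- replicate 3 at 0.955 and 0.952. Relative to the WT mean, the median gene of the 42 was at a log2 ratio of -0.07 in mTOR-/- replicate 1, 0.09 in replicate 2 and -0.11 in replicate 3, against 0.04, -0.04 and 0.00 in the WT replicates. Replicate 2 was the highest of the 6 libraries for 16 of the 42 genes (38.1%), but for 14.1% of all tested genes. Among the synthetases it was the highest for 10 of 18. Replicate 3 was the lowest for 18 of the 42 (42.9%), but for 27.7% of all tested genes. These counts were made after the values were seen and are descriptions, since genes of 1 library share its handling. Without replicate 3, 0 of the 42 genes were called and the median log2 fold change was 0.04, and without replicate 2 it was -0.09 with 1 gene called, Slc7a5.

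**Figure D3:**
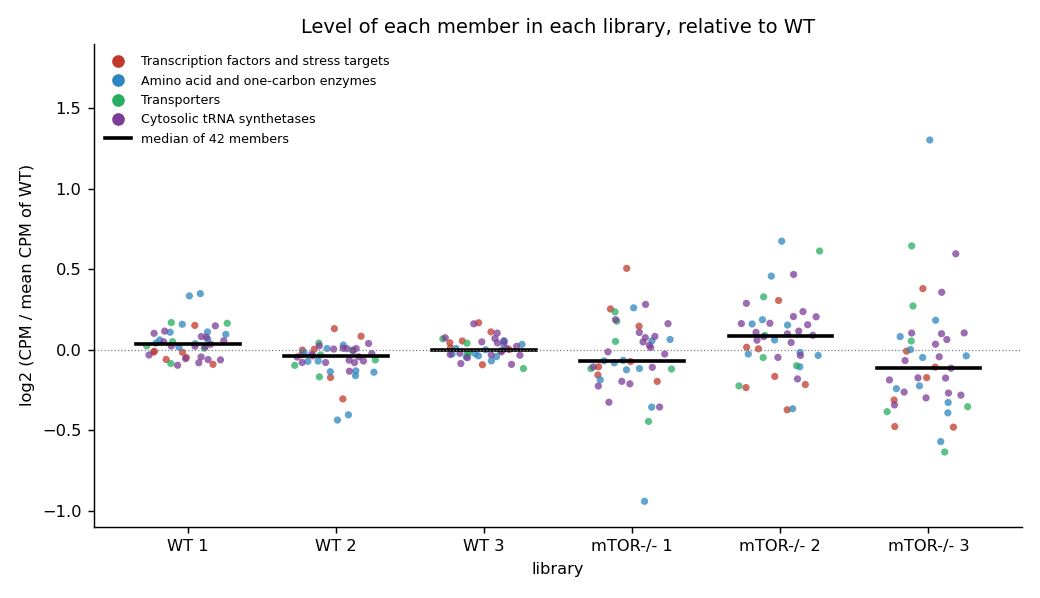
Log2 ratio of each gene's CPM to the mean CPM of WT (y axis) in each of the 6 libraries (x axis), 1 point per gene coloured by role, with the median of the 42 genes as a black bar. The medians are 0.09 in mTOR-/- replicate 2 and -0.11 in mTOR-/- replicate 3, while those of the WT libraries lie between -0.04 and 0.04.

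Other genes of the same pathways were examined as lists. Among 22 stress sensors and other ATF4 targets outside the 42, 2 fell, 0 rose and 20 were not called, with a median log2 fold change of 0.01. Over all tested genes, 1.87% were called lower. At an unadjusted edgeR p under 0.05, 6 of the 22 were lower, against 9.52% of all tested genes, and 1 was higher, against 11.7%. Every mTOR-/- library lay below every WT library for 7 of the 22, against 13.9% of all tested genes. The reverse held for 3 of the 22, against 14.5%. These counts were not tested. Gdf15, a secreted stress cytokine that ATF4 and CHOP induce, was at 73.3, 82.4 and 67.8 CPM in mTOR-/- and at 201, 193 and 213 CPM in WT. It fell to 36.8% of the WT mean, with a log2 fold change of -1.44 ± 0.10 (edgeR adjusted p = 0.000202). The groups were far apart, and its adjusted p stayed under 0.05 in all 14 alternative fits. Atf3, a stress-induced factor of the same family as ATF4, was at 123, 113 and 126 CPM in mTOR-/- and at 158, 166 and 172 CPM in WT. Atf3 fell by 0.46 on the log2 scale (SE 0.09, edgeR adjusted p = 0.0257), a call that was kept in 8 of the 14 alternative fits.

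The 17 mitochondrial tRNA synthetases, which are encoded by other genes than the cytosolic enzymes, included 12 with a log2 fold change above 0 and 5 below, with a median of 0.19 and 0 called by edgeR. Cars2, the mitochondrial cysteine enzyme, was at 25.8, 26.3 and 34.1 CPM in mTOR-/- and at 21.2, 15.9 and 19.5 CPM in WT. Its groups did not overlap, with the largest log2 fold change of that list, 0.61 ± 0.17 (edgeR adjusted p = 0.0909). DESeq2 (adjusted p = 0.0338) and the exact test (adjusted p = 0.0445) called it. Yars2 followed at 0.51 ± 0.25 (edgeR adjusted p = 0.273). At an unadjusted p under 0.05 there were 2 of the 17 (11.8%), both higher, a share close to the 11.7% of all tested genes. Of the 6 other parts of the cytosolic synthetases, the phenylalanine enzyme and the scaffold proteins among them, 0 were called and 0 had an unadjusted p under 0.05, with Tarsl2 at 0.32 and Aimp2 at -0.25. Of 10 other genes of one-carbon and folate metabolism, 0 were called by edgeR, 1 had an unadjusted p under 0.05, and the median log2 fold change was 0.00.

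**Figure D4:**
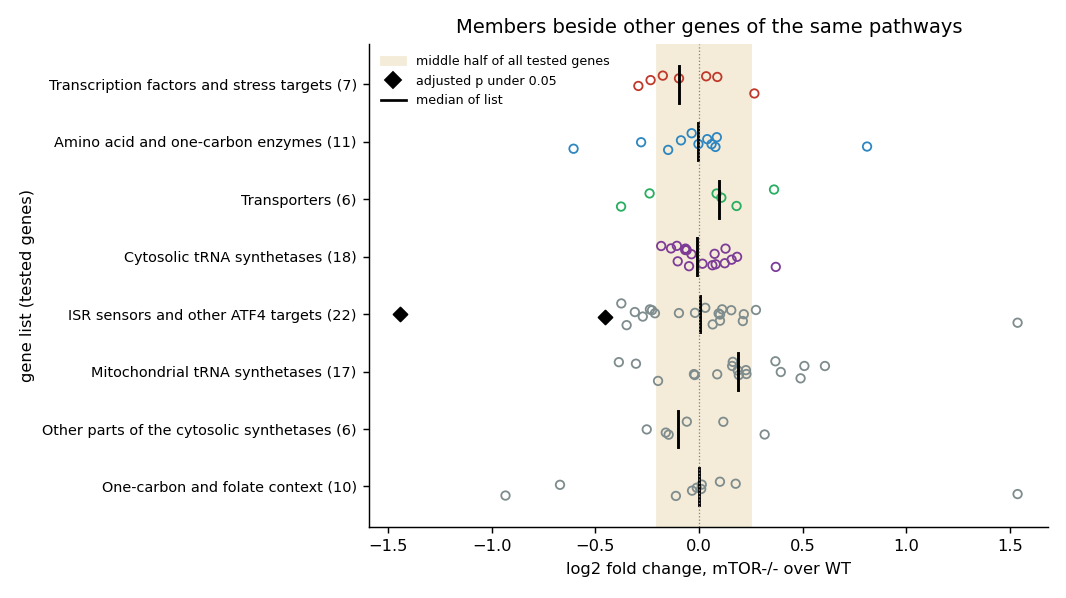
Log2 fold change, mTOR-/- over WT (x axis), of the tested genes of each list (rows, number of genes in brackets), with the 4 roles of the 42 genes above and 4 lists of related genes below. Black bars are medians, the shaded band holds the middle 50% of all tested genes, and filled diamonds are the 2 genes with an adjusted p under 0.05, Gdf15 and Atf3. Cbs is in 2 of the lists.

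The libraries held 12317507 to 12903191 counts in mTOR-/- and 14066578 to 14768126 in WT. The 42 genes together took 9085 to 10074 CPM in mTOR-/- and 9691 to 10073 CPM in WT, and the lowest count of any of them in a library was 82, for Pycr1. Lyz2, the gene whose locus drives the recombinase, was lower in mTOR-/- (log2 fold change -1.68, edgeR adjusted p = 0.0026). All 7 monocyte markers were tested, and 2 were called higher (Csf1r and Cd14) and 2 lower (Lyz2 and Ly6c2). Their summed level was 2254 to 2768 CPM in mTOR-/- and 3767 to 5409 CPM in WT, but without Lyz2 the sums overlapped, at 1351 to 1795 CPM and 1439 to 1601 CPM. Markers of other cells moved with the groups: mast cell and basophil markers summed to 441 to 516 CPM in mTOR-/- and 1282 to 1366 CPM in WT, with 4 of 7 called lower, and dendritic cell markers to 931 to 1072 CPM against 225 to 488 CPM, with 4 of the 7 tested of 8 called higher. Of 9 cycling cell markers, all had a log2 fold change below 0 and 2 were called, with a sum of 669 to 766 CPM against 751 to 987 CPM. Of 12 neutrophil markers, 2 were called higher (Ly6g, log2 fold change 2.26, and S100a8, 0.62) and 2 lower (Ltf, -2.04, and Ngp, -0.56). Ly6g was at 10.7 to 15.1 CPM in mTOR-/- and 0.853 to 5.06 CPM in WT. The sums of the 12 were 2437 to 2768 CPM in mTOR-/- and 2176 to 2515 CPM in WT. Macrophage markers summed to 560.2 to 673 CPM in mTOR-/- and 665 to 748 CPM in WT, with 1 of 6 tested called, higher. Their log2 fold changes ran from -0.85 to 9.90, so the sum does not stand for each marker. At an unadjusted edgeR p under 0.05, 3 of the 6 were higher and 1 lower, against 11.7% and 9.52% of all tested genes. The part of these cell types in the values of the 42 genes was not tested, and in bulk RNA fewer cells of a type and less RNA per cell cannot be told apart. Markers of T and B cells stayed at or below 4.28 CPM in sum and erythroid markers at or below 5.63 CPM.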

How the data were processed

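Total RNA of sorted M-MDSCs was sequenced in 6 libraries, 3 WT and 3 mTOR-/-, and groups and replicate numbers were taken from the sample titles. The authors deposited whole-number read counts per gene and FPKM values. Their methods name Bowtie2, HTSeq and mm10, while the submitters' processing notes list HISAT2 2.0.4, StringTie 1.3.0, GRCm38.p4 and mm9, and which of them made the counts, and with what strand setting, is not given in the sources used here. FPKM served only a check of gene lengths. Of 36 columns of per-sample values, 24 were repeats and were not used. The authors' own fold changes and p-values were not used.

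Counts were analysed with R 4.3.3 and edgeR 4.0.16 (filterByExpr with a minimum count of 10 and a minimum total of 15, TMM factors, quasi-likelihood F test, Benjamini-Hochberg over 12537 genes, threshold 0.05). DESeq2 1.42.0 and limma 3.58.1 served as alternatives, with other normalizations and filters, a replicate block and each library left out in turn. CPM values are TMM-normalised. SE is the log2 fold change over the square root of F, and intervals use the same fit. The test was tried on simulated counts, where false calls ran above the nominal share when the dispersion varied widely between genes, so single calls near the threshold are less firm than their adjusted p.

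The 42 genes and the other lists were chosen with earlier results of these data known. Per-library values were given for the genes with the largest log2 fold changes, up to 12 in all, and for Atf4, Asns and Chac1. Trib3 and Slc38a2 were added after their values were seen. Other lists name the called genes, or the 2 with the largest changes. The intervals, the counts of highest and lowest libraries, the levels per kilobase (GENCODE M21 exons, GRCm38) and the split by promoter motif were chosen after the values were seen, as were the alternatives for the genes outside the 42. Promoter windows were shortened to 28 bases where a longer one met an annotated exon, and the shortened windows were not checked again for exons. 1 further promoter window is not reported here.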

Additional observations from a re-analysis of the deposited data

How the results depend on the processing

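The direction and the side of the threshold held in 330 of the 336 values that the 42 genes took under 8 alternatives with all libraries. The count of genes called higher, 0 by the quasi-likelihood test, was 2 by DESeq2 (Shmt1, adjusted p = 0.0343, and Lars) and 1 by the exact test (Lars). The count called lower was 0 to 1 when single libraries were left out, the 1 being Slc7a5 without mTOR-/- replicate 2. With the added 2-fold limit both counts were 0 under all 14 alternatives. The log2 fold change of Mthfd1l, -0.00231, changed sign under limma-voom (0.000555), upper-quartile factors (0.00132) and the replicate block (0.000195). The cause of these differences was not tested. Leaving out single libraries changed a sign in 28 of 252 values. The ranges were -0.00409 to 0.129 for Atf5, -0.237 to 0.0156 for Ddit4, -0.133 to 0.123 for Sesn2, -0.00150 to 0.119 for Asns, -0.153 to 0.215 for Psph, -0.101 to 0.0427 for Shmt2, -0.166 to 0.0144 for Mthfd2, -0.0698 to 0.0397 for Mthfd1l, -0.0492 to 0.0945 for Aldh18a1, -0.242 to 0.289 for Slc1a4, -0.159 to 0.0271 for Aars, -0.0221 to 0.157 for Eprs, -0.156 to 0.0289 for Gars, -0.195 to 0.0269 for Iars, -0.293 to 0.0493 for Kars, -0.142 to 0.0431 for Nars, -0.0299 to 0.0516 for Qars and -0.0825 to 0.390 for Wars. Outside the 42, Tarsl2 ran from -0.193 to 0.608 and Atf3 from -0.50 to -0.42, with an adjusted p of 0.0503 to 0.139 in the 5 of 6 cases that lost the call. Over all genes, 507 were called by the quasi-likelihood test, 1144 by DESeq2, 1009 by the exact test and 173 to 513 with a library left out.

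The deviations of same-numbered libraries correlated at -0.08, -0.03 and -0.06, so no strong shared effect of the replicate number was seen. Such values cannot tell whether same-numbered libraries were prepared together, and the labels do not say. With the replicate block, 279 genes were called over all, 0 of the 42 among them and 4 of the 42 at an unadjusted p under 0.05, and Atf3 lost its call (adjusted p = 0.0867). At 3 libraries a group, the median half-width of 0.24 on the log2 scale limits what could be seen.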

Other observations

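The deposited FPKM values rest on a gene length that differs from the exon union for most of these genes. In each of 14219 of 15680 genes with reads in at least 2 libraries (90.7%), the FPKM of every library came from its count, the deposited total and 1 fixed length, within 0.01%. Over the 42 genes that length was 0.447 (Tars) to 2.08 (Qars) times the union of the annotated exons, with a median of 1.24. FPKM levels of different genes, such as Tars and Qars, therefore differ from counts per kilobase of exon by up to those factors, while a comparison of 1 gene between libraries does not use the length.

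Of the 42 genes, 6 have a span that overlaps a gene on the opposite strand whose count was at least 50% of their own. These are Ddit3 and Mars with each other (68 bases), Psph with Cct6a (452 bases), Shmt1 with Smcr8 (184 bases), Hars with Hars2 (198 bases) and Yars with C77080 (30 bases). The overlaps are of whole gene spans, and whether the shared bases are exonic in both genes was not tested. Atf5 shares 512 bases with Il4i1, at 45.9% of its count. How many reads such overlaps add to either gene was not tested.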
